A study of Rattus norvegicus with 28 samples.

Results

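Transgenic and wild-type rats were compared in the striatum after injury of the sciatic nerve, in 12 of the 28 RNA sequencing libraries of the series. The 12 were chosen by their labels, 6 transgenic (TG crush) and 6 wild-type (wt crush). Genes with at least 1 RPM (reads per 1000000 reads assigned to genes) in 6 or more of these libraries were compared, 16184 of the 39538 in the table. The other 16 libraries came from naive rats, 8 of each genotype, and served to show the same genes without injury and to estimate the spread.

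TG crush rats carried the genotype labelled {delta}ETorA and had the right sciatic nerve crushed for 30 seconds. Animals of the wt crush group had the genotype labelled wt and the same injury. TG naive and wt naive rats had the same genotypes and no crush. All rats were male, and every library, naive ones included, carries the label of 12 weeks post injury. The promoter that drives the transgene, the age of the rats, the side of the striatum taken and the time of day of sampling are not given in the sources used here. Nothing in the labels says more about separate animals than a number for each library, so the p-values rest on the spread among these libraries, which may be technical.

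TorsinA, the product of TOR1A, is an ATPase inside the endoplasmic reticulum and the nuclear envelope, where the membrane proteins LAP1 and LULL1 activate it. A small deletion in the gene causes DYT-TOR1A dystonia, an inherited movement disorder that many carriers never develop. The striatum is built mainly of spiny projection neurons, which send the direct and indirect pathways to the other basal ganglia, with a minority of cholinergic and GABA interneurons. The series set out to find genes and pathways that differ between these rats and wild-type rats, and the injured arm puts both genotypes under the same peripheral lesion.

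The crush libraries held 32269301 to 37291207 assigned reads, and at the lowest of these depths a gene with no read could still have up to 0.093 RPM (counting error alone). Markers of the labelled tissue were high in both groups: Ppp1r1b, the DARPP-32 gene of spiny neurons, stood at 2531 to 3037 RPM in wt crush and 1482 to 2948 RPM in TG crush libraries. TG crush replicate 223 stood apart, with the lowest level of the spiny neuron lists, 18.5% of its reads from the mitochondrial genome against 10.4% to 15.9% in the other 11, and a median distance of 0.22 log2 units to the mean of its group against at most 0.14 in the others. TG crush replicate 220 held 63.3 RPM of the cortical gene Slc17a7, against 2.11 to 10.6 RPM in the other 11. Among wt crush libraries, replicate 203 had the largest mitochondrial share at 15.9%. The number of cells of a type and the RNA per cell cannot be told apart in such bulk samples.

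The human TOR1A transcript was the single gene that passed limma's test between the crush groups, and it was higher in every TG crush library. Human TOR1A, a row of its own in the table, stood at 102 RPM at the lowest, 137 at the median and 139 at the highest in TG crush libraries, and at 0, 0.0448 and 0.447 RPM in wt crush libraries. Replicate 226 was the lowest of the TG crush group, the other 5 lay close together, and the groups did not overlap. The mean was 131 ± 14.1 RPM (SD, n = 6) against 0.104 ± 0.172 (SD, n = 6), a log2 difference of 7.80 (SE 0.18, limma adjusted p = 3.56e-23, two-sided exact permutation p = 0.00216, the smallest this design can give). All log2 differences are given on the log2(RPM + 0.5) scale as TG crush minus wt crush, which understates the difference of low genes. In the naive arm the transcript ranged from 128.8 to 143.8 RPM in TG and from 0 to 0.972 RPM in wt libraries.

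**Figure D1:**
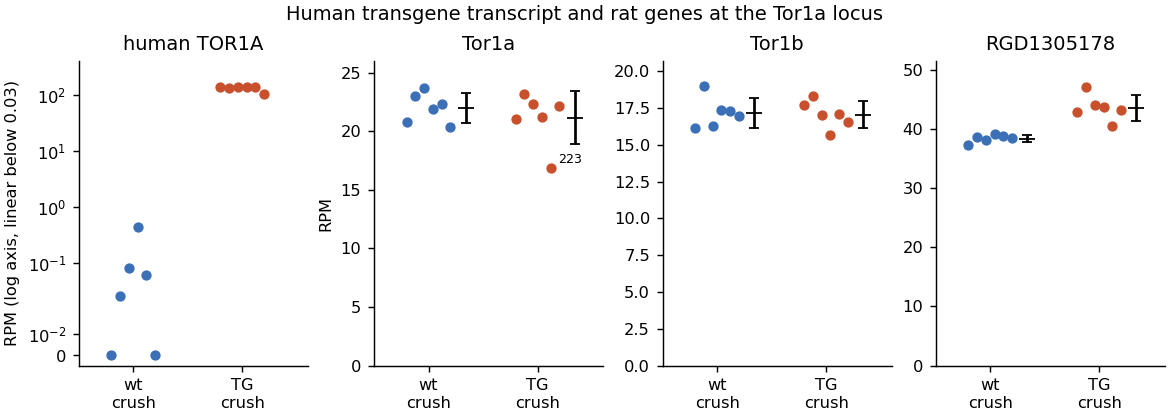
RPM of the human TOR1A transcript (log axis, linear near 0) and of the rat genes Tor1a, Tor1b and RGD1305178 in each of the 6 wt crush and 6 TG crush libraries. Points are libraries, and the bar beside a linear panel is the mean with its SD. The human transcript and RGD1305178 separate the groups, while Tor1a and Tor1b overlap, with TG crush replicate 223 lowest for Tor1a at 16.9 RPM.

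The rat torsin genes overlapped between the genotypes. Tor1a (chromosome 3, 9800322 to 9807318, minus strand, Rnor_6.0), the rat gene for torsinA, stood at 16.9, 21.7 and 23.2 RPM (lowest, median, highest) in TG crush and 20.4, 22.1 and 23.7 RPM in wt crush libraries. Replicate 223 alone lay below the wt crush range, and the log2 difference was -0.06 (SE 0.06, limma adjusted p = 0.782, two-sided exact permutation p = 0.511). Without replicate 223 it was 0.001. The row of the human transcript is 2.12 kb long and that of Tor1a, introns included, 7.0 kb, so their levels are not set against each other per length.

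Tor1b, which encodes the closest relative of torsinA and lies beside Tor1a, stood at 15.7 to 18.3 RPM in TG crush and 16.1 to 19.0 RPM in wt crush libraries, with a log2 difference of -0.01 (SE 0.05). Of the cofactors, Tor1aip1 (LAP1) had a log2 difference of -0.003 and Tor1aip2 (LULL1) one of 0.05. Tor4a had the lowest p of the 7 torsin genes and cofactors, at a log2 difference of 0.19 (SE 0.08, limma adjusted p = 0.602), and no gene of the list passed the test.

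One neighbour of Tor1a separated the crush groups. RGD1305178 (chromosome 3, 9813914 to 9822222, minus strand) stood at 40.5, 43.5 and 47.2 RPM in TG crush and 37.3, 38.6 and 39.1 RPM in wt crush libraries. All 6 TG crush libraries were above all 6 wt crush libraries, with a log2 difference of 0.18 (SE 0.05), which did not pass over all genes (limma adjusted p = 0.376, 0.193 to 0.749 with a single crush library left out). In naive rats the same gene passed, at 0.23 (limma adjusted p = 0.016), with 42.1 to 48.6 RPM in TG and 36.3 to 44.1 RPM in wt libraries. Within 150 kb of Tor1a, the tested genes Ntmt1 (0.03), Asb6 (-0.07), Usp20 (-0.01), Fnbp1 (0.06) and LOC102554659 (0.14) had overlapping groups and no call, and Prrx2 and Ptges were too low to be tested.

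Among rat genes, 0 passed limma's test in either direction. The single call is 0.00618% of the 16184 genes. The genes with an unadjusted p under 0.05 numbered 1325 (8.19%), against 809.2 expected by chance, 623 higher (3.85%) and 702 lower (4.34%) in TG crush. Limma-voom on whole reads also called 1 gene higher and 0 lower, with 1326 genes at that unadjusted level. The count depended on the libraries used, and why was not tested. Without TG crush replicate 223 it was 716, below the number expected by chance, and without both 220 and 223 it was 396. Without TG crush replicate 214, which leaves as many libraries, it was 1821. In the naive arm the count was 782. In the naive arm 6 genes passed after adjustment (0.0371%).

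Differences were small in most genes. The log2 difference lay between -0.21 and 0.23 for the middle 90% of genes, the 5th to the 95th percentile, around a median of -0.002, and 14 genes exceeded 1 in size. Between libraries of one group, the SD of a gene's log2 level had a median of 0.17 in TG crush and 0.10 in wt crush, and 84.6% of genes varied more in TG crush. Without replicate 223 the TG crush median was still 0.14.

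In 60 genes, or 0.371% of those tested, the 6 libraries of one group all lay above the 6 of the other, 35 higher (0.216%) and 25 lower (0.154%) in TG crush. By chance alone a gene's groups lie apart, in either direction, with a probability of 0.00216, the smallest exact permutation p of this design. Many of the 60 can thus be chance separations. The human transcript is 1 of the 35. Of the 59 rat genes, 21 (35.6%) had the same sign of the genotype difference in the naive arm, which uses other libraries, against 45.9% of all genes. In 0 of the 59 did the naive groups also lie apart in the same direction. The other sign was the more common one among all genes as well, so this count is not read as a trait of these genes.

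**Figure D2:**
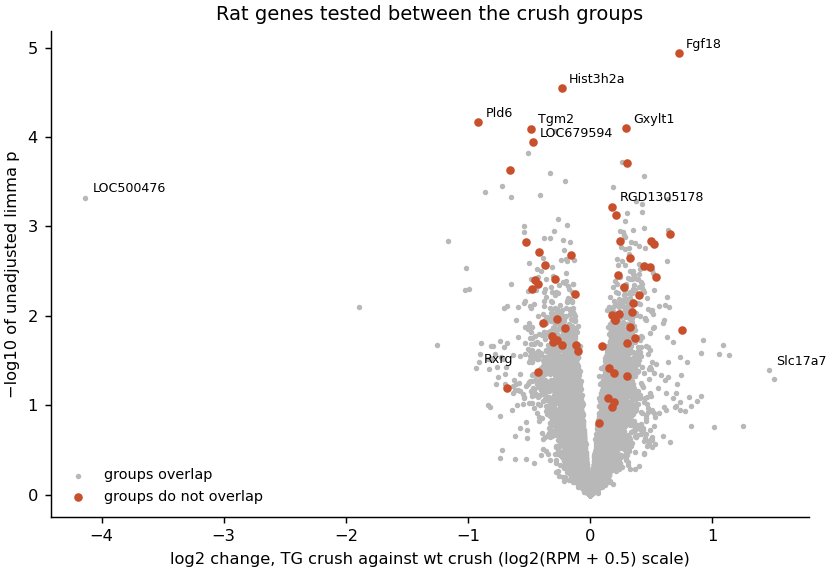
Each of the rat genes tested by its log2 difference between TG crush and wt crush (horizontal) and the negative log10 of its unadjusted limma p (vertical). Genes whose crush groups do not overlap are in red. Fgf18 is the highest point, LOC500476 lies far to the left with overlapping groups, and no rat gene passed after adjustment over all genes (smallest adjusted p 0.0938).

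Fgf18 (chromosome 10, 18047109 to 18082290), a secreted fibroblast growth factor, stood at 3.64, 4.22 and 5.64 RPM in TG crush and 2.0, 2.29 and 3.08 RPM in wt crush libraries. The groups did not overlap, with replicate 220 highest, and the log2 difference was 0.73 (SE 0.14, limma adjusted p = 0.0938). It passed where noisy libraries were given less weight (0.69, limma adjusted p = 0.0459). In naive rats the difference was 0.23, with overlapping groups at 2.91 to 5.25 RPM in TG and 2.23 to 4.58 RPM in wt libraries. Alternative settings are named with single genes, here and below, because the gene passed in them, so they are no separate support. Between the crush groups no rat gene passed in the main fit, or in it with a single crush library left out.

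Hist3h2a (chromosome 10, 45297603 to 45299155), a core histone H2A gene, stood at 15.7, 17.1 and 17.7 RPM in TG crush and 18.5, 19.8 and 20.9 RPM in wt crush libraries. Every TG crush library was below every wt crush library, by little, and the log2 difference was -0.23 (SE 0.05, limma adjusted p = 0.153). On the deposited RPKM it passed (-0.24, limma adjusted p = 0.0484). Of the 20 histone genes tested, 6 had a positive and 14 a negative difference, with a median of -0.03 (-0.02 without replicate 223), and Hist2h3c2, an H3 gene, was next by p (-0.26, adjusted p = 0.602).

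Pld6 (chromosome 10, 46142313 to 46145774), a phospholipase D family enzyme of the mitochondrial surface, stood at 0.539, 0.733 and 1.37 RPM in TG crush and 1.74, 1.84 and 2.37 RPM in wt crush libraries. Replicate 222 was the highest of the TG crush group and still below all wt crush libraries. The log2 difference was -0.92 (SE 0.20, limma adjusted p = 0.196), and -0.75 in naive rats, where TG libraries ran from 0.498 to 3.13 RPM and overlapped wt ones at 1.63 to 2.38. With the 12 crush libraries fitted alone it passed (limma adjusted p = 0.0314). Of the 16 lipins, phospholipases D and related enzymes of phospholipid and triglyceride synthesis tested, 10 had a positive difference, and the list's median was 0.04. Dgat2, which makes triglycerides, came next by p at -0.15 (adjusted p = 0.62).

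Tgm2 (chromosome 3, 154597165 to 154627257), the tissue transglutaminase that cross-links proteins of the matrix and of cells, stood at 7.99, 9.87 and 12.4 RPM in TG crush and 12.7, 14.1 and 17.9 RPM in wt crush libraries. The groups came close without overlapping, and the log2 difference was -0.49 (SE 0.11, limma adjusted p = 0.196). In naive rats it was 0.24, and both naive groups stood higher, at 22.6 to 34.1 RPM in TG and 18.1 to 26.2 RPM in wt libraries. The difference between arms had an adjusted p of 0.132 by limma's interaction test. It passed in the crush arm with array weights (limma adjusted p = 0.0459).

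Cd93 (chromosome 3, 142778798 to 142783774), a receptor of endothelial cells, had a negative difference after crush and a positive one in naive rats, with overlapping crush groups. It stood at 5.41, 6.78 and 9.54 RPM in TG crush and 8.24, 10.1 and 12.4 RPM in wt crush libraries, with 4 of 6 TG crush libraries below the wt crush range. The log2 difference was -0.51 (SE 0.12, limma adjusted p = 0.274) after crush and 0.23 in naive rats. Over the 26 endothelial and mural genes tested the median was 0.03, with 18 positive, and without replicate 223 it was -0.03, with 10 positive. Pecam1, an adhesion molecule of endothelium, was at -0.14 and Cldn5, a tight junction protein, at 0.01.

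**Figure D3:**
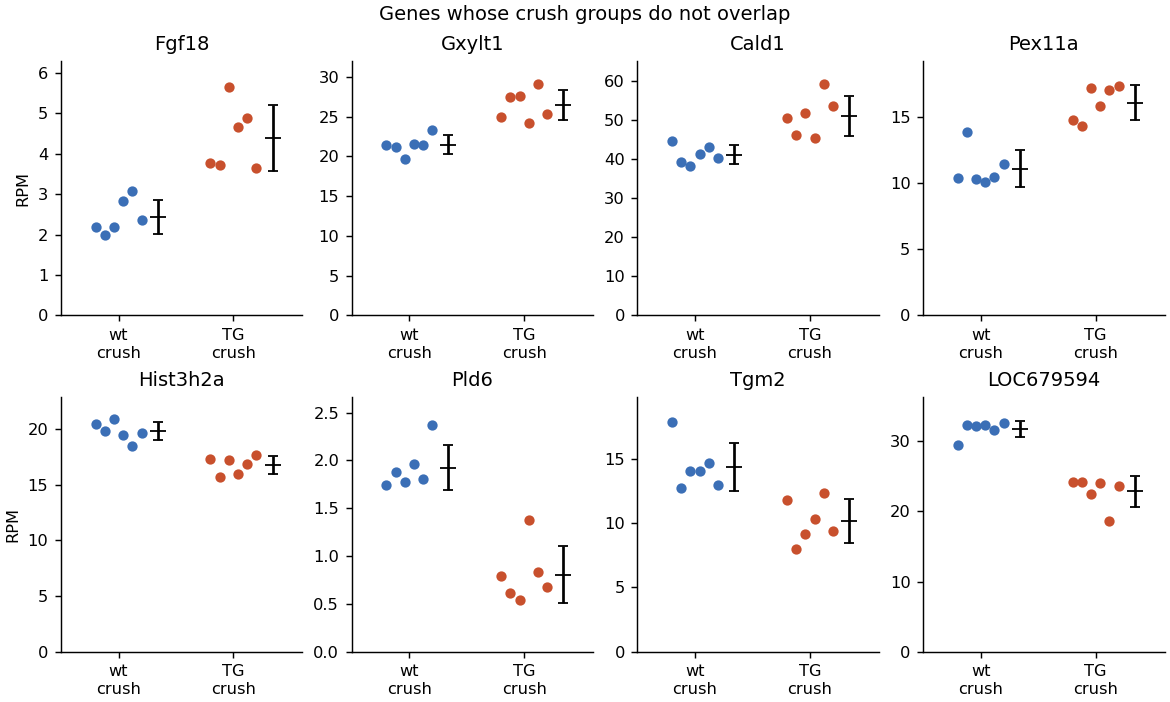
RPM in each crush library for 8 of the rat genes whose crush groups do not overlap, the upper 4 higher and the lower 4 lower in TG crush. Points are libraries, and the bar beside each group is the mean with its SD. The gap between groups is narrow in Hist3h2a (17.7 against 18.5 RPM) and Tgm2 (12.4 against 12.7 RPM) and wider in LOC679594 (24.2 against 29.4 RPM).

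Gxylt1, Cald1 and Pex11a were higher in all 6 TG crush libraries than in any wt crush library. Gxylt1, a xylosyltransferase that extends glucose on Notch-type repeats, stood at 24.2, 26.4 and 29.1 RPM in TG crush and 19.7, 21.5 and 23.4 RPM in wt crush libraries, without overlap (log2 difference 0.29, SE 0.06, limma adjusted p = 0.196). Cald1, the actin-binding protein caldesmon, stood at 45.4, 51.2 and 59.3 RPM against 38.3, 40.9 and 44.8 RPM, again without overlap (0.30, adjusted p = 0.286). Pex11a, a peroxisome membrane protein that promotes peroxisome division, stood at 14.3, 16.4 and 17.3 RPM against 10.1, 10.4 and 13.8 RPM (0.52, adjusted p = 0.466). In naive rats the 3 genes had log2 differences of 0.02, 0.04 and -0.02.

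Pank1, which begins coenzyme A synthesis, Slc7a6, an amino acid transporter, and Srsf3, a splicing factor, also ranked among the higher genes of lowest p, at log2 differences of 0.26, 0.43 and 0.19, and the groups of each overlapped. Derl3, a membrane protein of endoplasmic reticulum degradation, stood at 2.11 to 3.30 RPM in TG crush and 1.68 to 2.25 RPM in wt crush libraries (0.37, adjusted p = 0.352). The row LOC103694875 held the same values as Derl3, so the pair is 1 signal.

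Among the lower genes of lowest p, Marc1, a mitochondrial reductase, and Vps52, a subunit of a complex for vesicle return to the Golgi, had overlapping groups, at log2 differences of -0.29 and -0.21. LOC679594 stood at 18.6, 23.9 and 24.2 RPM in TG crush and 29.4, 32.3 and 32.6 RPM in wt crush libraries, without overlap (-0.47, SE 0.10, limma adjusted p = 0.232), and it passed with the crush libraries fitted alone (adjusted p = 0.0289). LOC689561, at 0.62 to 1.41 RPM against 1.77 to 2.84 RPM, was separated as well (-0.66, adjusted p = 0.313). Loci with no gene name, as these, can share reads with a related copy.

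Stress pathways of the endoplasmic reticulum, where torsinA resides, had no called member. Of 36 genes of the unfolded protein response, 25 had a positive difference, with a median of 0.04. Without replicate 223, 27 of 36 were positive (median 0.056), and without both 220 and 223, 31 of 36 (median 0.063). With all libraries 3 of the 36 had an unadjusted p under 0.05, all higher. Of all genes, 8.19% had one in either direction and 3.85% on the higher side. Hspa5, the main chaperone BiP, was at 0.13, Xbp1, the spliced transcription factor, at 0.14, Ddit3, the CHOP factor, at 0.01, and Hsp90b1 at -0.004. Ssr1, a subunit of the translocon-associated complex, was at 0.16 (adjusted p = 0.602). In the integrated stress response list, 11 of 24 genes were positive with a median of -0.01, and 14 of 24 without replicate 223 (median 0.02). Slc7a11, the cystine transporter, stood at 57.6, 69.6 and 102 RPM in TG crush and 46.5, 53.1 and 65.6 RPM in wt crush libraries (0.40, adjusted p = 0.587). Among nuclear envelope and LINC complex genes 6 of 30 were positive (median -0.06), and 8 of 30 without replicate 223 (median -0.03). These shares compare with 49.2% positive among all genes.

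Genes of other inherited dystonias had mostly negative differences and no call. Of 27 tested, 21 were negative, the median was -0.08, and 4 had an unadjusted p under 0.05, all lower, where 4.34% of all genes had one on the lower side. Gnao1, a G protein subunit, stood at 602, 679 and 696 RPM in TG crush and 688, 737 and 771 RPM in wt crush libraries, with 3 TG crush libraries below the wt crush range (-0.14, SE 0.05, adjusted p = 0.602). Sgce, epsilon-sarcoglycan, was at -0.16 (-0.10 without replicate 223), Gnal, the G protein of the striatal dopamine receptor, at -0.27, and Ano3, a membrane scramblase, at -0.45. Without replicate 223 the list's median was -0.03.

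Spiny neuron markers had lower medians in TG crush, unevenly across libraries. Of the 9 direct pathway markers all 9 were negative, with a median log2 difference of -0.28, of the 7 tested indirect pathway markers 6 were negative (median -0.18), and of 24 markers of both pathways 23 were negative (median -0.24). Together, 5 of these 40 markers had an unadjusted p under 0.05, all lower, and none was called. Of all genes, 8.19% had one in either direction and 4.34% on the lower side. Without replicate 223 the medians were -0.16, -0.07 and -0.16, and without both 220 and 223 they were -0.16, -0.03 and -0.12. In naive rats the medians were -0.01, 0.15 and 0.12.

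Drd1, the dopamine receptor of the direct pathway, stood at 135, 256 and 358 RPM in TG crush and 296, 340 and 379 RPM in wt crush libraries. Replicate 223 was lowest and replicates 214 and 222 lay within the wt crush range (log2 difference -0.43, SE 0.22, limma adjusted p = 0.613). Drd2, the receptor of the indirect pathway, had a log2 difference of -0.18, Penk, its enkephalin precursor, -0.20, Tac1, the substance P precursor of the direct pathway, -0.46, and Adora2a, the adenosine receptor, -0.12. Without replicate 223 the differences were -0.25 for Drd1, -0.08 for Drd2, -0.07 for Penk, -0.27 for Tac1 and -0.03 for Adora2a. Rxrg, a retinoid receptor of spiny neurons, ranged most widely, at 20.4, 52.1 and 120 RPM in TG crush and 75.6, 96.0 and 123 RPM in wt crush libraries (-0.93, SE 0.43, adjusted p = 0.602). Calb1, the calcium buffer calbindin, was at -0.59 and Cacna2d3, a calcium channel subunit, at -0.48, and at -0.42 and -0.31 without replicate 223.

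The mean log2 level of the direct pathway markers was 5.28 ± 0.31 (SD, n = 6) in TG crush and 5.55 ± 0.08 (SD, n = 6) in wt crush libraries, and the groups overlapped. In 33 of the 37 lists the SD over libraries was larger in TG crush, and in 0 of the 37 did the levels of the groups lie apart. The count of 33 includes replicate 223. Without it the TG crush SD was still larger for direct pathway markers (0.17 against 0.08). It was smaller in some other lists, as in inherited dystonia (0.040 against 0.046). Replicates 214 and 222 had direct pathway levels of 5.62 and 5.49, inside the wt crush range of 5.43 to 5.66. Replicates 219, 220 and 226 lay below it, between 5.18 and 5.37, and replicate 223 was at 4.72.

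Interneurons and signalling lists gave medians nearer 0. Cholinergic markers had 5 of 9 positive (median 0.02), with Chat, which makes acetylcholine, at 11.9, 21.8 and 27.1 RPM in TG crush and 18.4, 21.3 and 26.1 RPM in wt crush libraries, and Slc17a8, a vesicular glutamate transporter, at -0.32 (-0.13 without replicate 223). The row of the transporter gene Slc18a3, a defining cholinergic marker, was at 0 in all 12 libraries. Rows span introns, and whether reads of this gene were lost where rows overlap was not tested. The 0 is thus not read as absence of the transcript. GABA interneuron markers had 4 of 13 positive (median -0.12), led by Nos1, the neuronal nitric oxide synthase, at -0.30 (adjusted p = 0.602), and at -0.18 without replicate 223. Medians were -0.05 for dopamine transmission (7 of 20 positive), -0.10 for glutamate receptors (9 of 21), 0.001 for GABA-A receptors (6 of 12), -0.11 for calcium signalling (9 of 39), -0.04 for potassium channels (15 of 34) and -0.07 for synaptic vesicle and SNARE genes (14 of 36). Without replicate 223 none of these 8 medians was below -0.02, and those of GABA interneurons, glutamate receptors, potassium channels and synaptic genes turned positive, at 0.001, 0.02, 0.002 and 0.02. The cholinergic median was then 0.12 and that of GABA-A receptors 0.07.

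**Figure D4:**
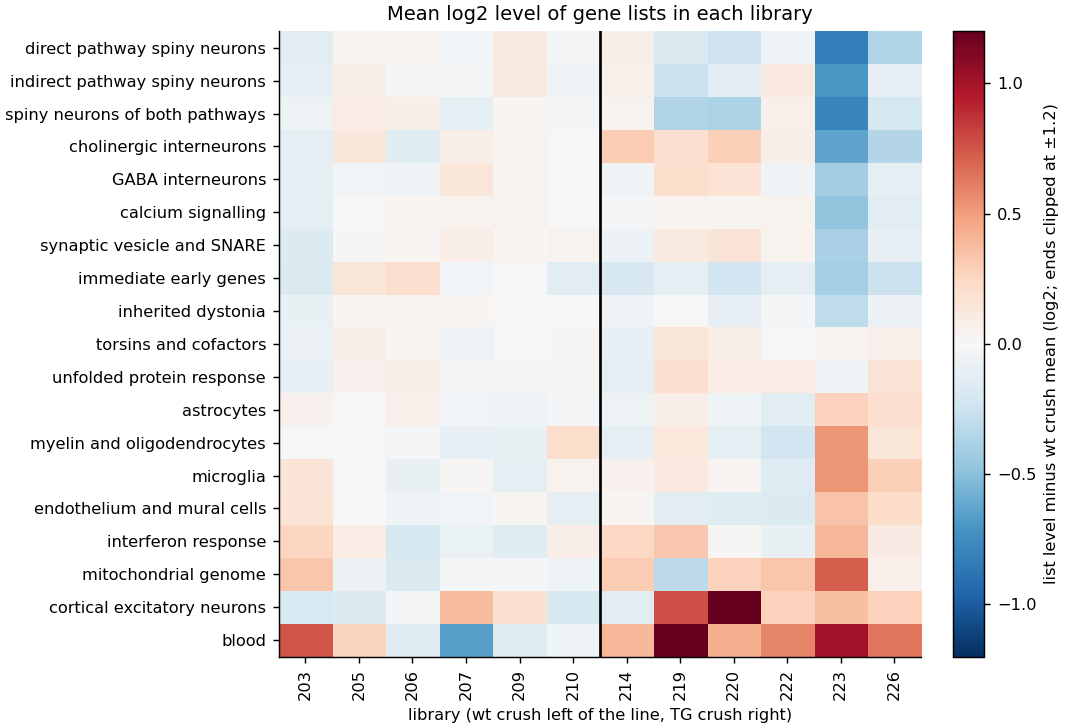
Mean log2 level of 19 gene lists (rows) in each crush library (columns), as the difference from the wt crush mean, blue below and red above. Replicate 223 is blue in the striatal neuron rows and red in the glial, mitochondrial, blood and cortical excitatory neuron rows. Replicate 220 is reddest for cortical excitatory neurons, and wt crush replicate 203 is pale blue in the neuronal rows with a red mitochondrial row.

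Microglial, astrocyte and blood genes had positive medians with and without replicate 223. Of 22 microglial genes 21 were positive, with a median of 0.14 that was 0.07 without replicate 223. Itgam, the microglial integrin CD11b, stood at 16.8, 23.0 and 33.0 RPM in TG crush and 12.9, 19.3 and 21.3 RPM in wt crush libraries (0.34, adjusted p = 0.602), and P2ry12, a receptor of resting microglia, was at 0.10. Gpr84, a receptor of activated microglia, was the negative one at -0.24. Astrocyte genes had 17 of 22 positive (median 0.06, and 0.02 without replicate 223), and Aqp4, the water channel of astrocyte endfeet, was at 0.20. Myelin and oligodendrocyte genes had 18 of 24 positive (median 0.03), which became 8 of 24 (median -0.05) without replicate 223.

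Blood genes were positive in 6 of 6 tested (median 0.72, and 0.67 without replicate 223). Hba2, an alpha globin, stood at 21.5, 25.6 and 42.0 RPM in TG crush and 9.48, 15 and 27.8 RPM in wt crush libraries, with overlap (adjusted p = 0.634). The summed level of the blood list ran from 99.9 to 188 RPM in TG crush and 43.2 to 125 RPM in wt crush libraries. Globin genes are near copies, so these 6 are not separate signals.

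Transcripts of the mitochondrial genome were positive in 13 of 13 (median 0.20, and 0.11 without replicate 223), with ATP8, a subunit of the ATP synthase, at 181, 432 and 682 RPM in TG crush and 185, 254 and 287 RPM in wt crush libraries. Replicates 219 and 226 were low, and the other 4 TG crush libraries lay above all wt crush libraries. Nuclear genes of the respiratory chain had 20 of 80 positive and a median of -0.03, beside glycolysis (2 of 19, -0.05) and the proteasome (13 of 46, -0.04). Without replicate 223 these 3 medians were -0.02, -0.009 and -0.02, with 24, 7 and 14 genes positive. Cytosolic ribosome genes had 53 of 99 positive (median 0.005), and 14 of 99 without replicate 223.

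Markers of regions next to the striatum also differed between libraries. Slc17a7, the vesicular glutamate transporter of cortical neurons, stood at 3.47, 6.81 and 63.3 RPM in TG crush and 2.11, 2.87 and 5.48 RPM in wt crush libraries, 5 of 6 TG crush libraries being above the wt crush range (log2 difference 1.46, SE 0.68, limma adjusted p = 0.603, and 0.92 without replicates 220 and 223). Summed over 14 cortical markers the level was 308 to 609 RPM in TG crush and 286 to 421 RPM in wt crush libraries, with Neurod1 at 0 in all 12. Of 8 tested, 7 were positive, and the median was 0.36, or 0.22 without 220 and 223. Ttr, the main transcript of the choroid plexus, stood at 6.19, 20.4 and 77.5 RPM in TG crush, highest in 223 and 226, and 4.25, 7.28 and 13.6 RPM in wt crush libraries. The 6 pituitary markers summed to 3.88 to 79.8 RPM in TG crush and 3.81 to 184 RPM in wt crush libraries, so that traces of pituitary transcripts were in both groups. Over the 15 tested markers of thalamus, choroid plexus, pituitary and other neighbours the median was 0.09, with 9 positive, and without replicate 223 it was -0.03, with 7 positive. The part of these tissues in the differences of the neuronal and glial lists was not tested.

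Genes induced by neuronal activity had a negative median and no call. Of 22 immediate early genes 18 were negative, with a median of -0.14, and -0.11 without replicate 223. Egr2, a zinc finger factor, stood at 5.61, 8.13 and 9.84 RPM in TG crush and 10.2, 12.9 and 17.0 RPM in wt crush libraries, without overlap (log2 difference -0.68, SE 0.35, limma adjusted p = 0.619). Fosb, an AP-1 subunit, was at -0.53 and Nr4a3, an orphan nuclear receptor, at -0.70, both with overlapping groups and adjusted p = 0.602, while Fos was at -0.21 and Arc at -0.13. In the naive arm the list's median was 0.10 and 18 of 22 genes were positive.

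Vgf, a secretory peptide precursor induced by neurotrophins and counted among nerve injury and growth genes, stood at 40.4, 70.7 and 83.7 RPM in TG crush and 83.7, 88.2 and 106 RPM in wt crush libraries. The groups met at 83.7 RPM without overlapping, and the log2 difference was -0.45 (SE 0.14, limma adjusted p = 0.587), or -0.31 without replicate 223. Over the 27 tested genes of this list the median was -0.01, and Sox11, a factor of axon growth, was at 0.34 (adjusted p = 0.608).

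Clock genes gave opposite values in different members. Arntl, which encodes the activator BMAL1, stood at 15.5, 23.0 and 25.4 RPM in TG crush and 26.5, 29.9 and 32.6 RPM in wt crush libraries, without overlap (log2 difference -0.42, SE 0.12, limma adjusted p = 0.512). In naive rats it was at 0.31. Nr1d1, a repressor of Arntl, was at -0.28 after crush (adjusted p = 0.587) and passed in naive rats at -0.46 (adjusted p = 0.0175). Nr1d2, its partner, stood at 111, 118 and 131 RPM in TG crush and 103, 107 and 118 RPM in wt crush libraries, with a log2 difference of 0.12 (adjusted p = 0.603).

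Nr1d2 was the single gene whose genotype difference itself differed between arms (interaction 0.48, limma adjusted p = 0.00712; 0.00618% of genes). In naive rats it stood at 58.9 to 72.0 RPM in TG and 75.4 to 94.6 RPM in wt libraries (-0.36, adjusted p = 0.00028). Both naive groups lay below both crush groups. Over 20 clock genes 11 were positive after crush (median 0.04) and 6 in naive rats (median -0.09). The time of sampling of each group was not tested.

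**Figure D5:**
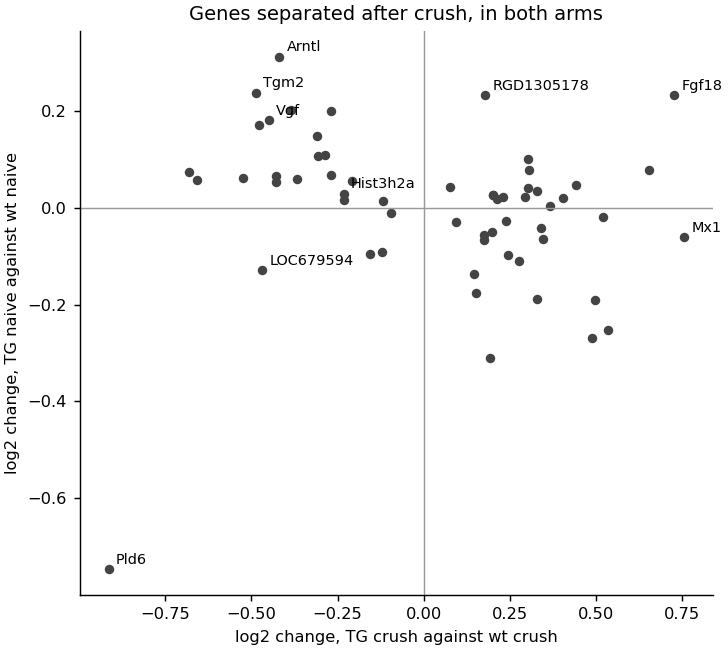
The 59 rat genes whose crush groups do not overlap, by their log2 difference between genotypes after crush (horizontal) and in naive rats (vertical). Pld6 (-0.92 and -0.75) and RGD1305178 (0.18 and 0.23) lie in the quadrants of equal sign, Tgm2 (-0.49 and 0.24) and Arntl (-0.42 and 0.31) in that of opposite sign, and most other points are near 0 on the vertical axis.

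Interferon-responsive genes had 23 of 28 positive differences (median 0.12, and 0.07 without replicate 223). Mx1, an antiviral GTPase, stood at 1.71, 1.98 and 3.28 RPM in TG crush and 0.731, 1.2 and 1.56 RPM in wt crush libraries, without overlap (log2 difference 0.76, SE 0.29, limma adjusted p = 0.602). In naive rats its groups overlapped at 0.886 to 8.28 RPM in TG and 1.64 to 4.89 RPM in wt libraries. Ifit3, another gene of the list, was at 0.63 with overlapping groups, and Irf7, the factor that amplifies the response, at 0.45. The 3 remaining lists had medians of 0.03 for cholesterol synthesis (16 of 23 positive), 0.04 for matrix and matrix proteases (19 of 29) and -0.04 for cytosolic heat shock proteins (9 of 22). Without replicate 223 they were 0.02 (14 of 23), -0.005 (13 of 29) and 0.03 (16 of 22), with the matrix and heat shock medians changing sign.

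Some of the widest differences came from genes that were either high or low in a library, with nothing between. The pseudogene LOC500476 (chromosome 5, 84571472 to 84573949) stood at 13.4 to 26.3 RPM in all 6 wt crush libraries and in TG crush replicate 214 at 25.2 RPM, and at 0.062 to 0.14 RPM in the other 5 TG crush libraries. Its log2 difference was -4.14 (SE 1.05, limma adjusted p = 0.352). In naive rats the high state was found in 5 of 8 TG and 2 of 8 wt libraries. A gap of at least 2 log2 units, with 2 or more libraries on each side, was found in 8 genes, the human transcript included. Gaps that set a single library apart, as for Slc17a7 in TG crush replicate 220, are not in this count.

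Among the others, Mpeg1, the macrophage perforin, was high (44.9 RPM or more) in 5 of 6 TG crush and 3 of 6 wt crush libraries and at most 7.54 RPM in the rest. Ephx2, the soluble epoxide hydrolase, was high in 5 of 6 and 3 of 6, Asb15 in 3 of each group, LOC108350646 in 2 TG crush and 5 wt crush libraries, and LOC685716 in 4 and 6. Car3, a carbonic anhydrase of muscle and fat, was high in TG crush replicates 223 and 226 alone, at 19.8 RPM or more against at most 2.02 RPM elsewhere. In Asb15, LOC108350646, Mpeg1 and Ephx2 both crush groups thus held libraries of both states. Retsat, a retinol saturase, showed a narrower split, at 64.8 to 70.4 RPM in 4 wt crush libraries and 28.9 to 41.1 RPM in the other two and all TG crush libraries (-0.65, adjusted p = 0.352). Iqgap2, a scaffold of the cytoskeleton, stood at 6.29, 11.1 and 28.9 RPM in TG crush, highest in replicate 214, and 18.8, 29.1 and 34.1 RPM in wt crush libraries (-1.16, SE 0.33, adjusted p = 0.466). These genes were chosen after their values were seen.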

How the data were processed

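RNA was isolated with the RNeasy Micro Kit from snap-frozen striatum, and stranded mRNA libraries were sequenced single-end at 75 nt in 2 runs, per the labels' protocols. The submitters' processing notes name STAR 2.6.1a, Rnor_6.0, featureCounts, Subread 1.6.3 and DESeq2 1.22.2, with no strand setting for the counting, so genes that overlap on opposite strands are uncertain. The authors deposited RPKM values with decimal commas for 39538 rows, with lengths that span introns. RPM was RPKM multiplied by the length in kilobases. Values were whole multiples of 1 read per library within 0.02 for 100% of values.

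With limma 3.58.1 in R 4.3.3, log2(RPM + 0.5) was fitted on the 4 groups of all 28 libraries, with variances moderated along the mean. P-values were adjusted over 16184 genes (Benjamini-Hochberg), and a call needed an adjusted p under 0.05. A family of 20 genes, human TOR1A and Tor1a among them, was also compared by exact permutation over the 924 splits of 12 libraries. Permutation p-values given with single genes are unadjusted. After Benjamini-Hochberg adjustment within the family, exact permutation gave p = 0.0108 for human TOR1A, RGD1305178, Hist3h2a and Pld6. It gave 0.0173 for Slc17a7, 0.0216 for Nr1d1, 0.0371 for Cd93 and 0.106 or more for the rest. The family was chosen with earlier results of these data known, so low values are no separate support. Of the 37 lists, those of the cytosolic ribosome, nuclear respiratory chain, proteasome and histones were drawn from the table by name pattern. The other lists held 762 symbols, of which 744 matched the table. For 48 symbols in several rows, the row of highest mean was used. The fit was tested on simulated data. Alternatives were 10 settings, 12 fits with a library left out, and 2 fits without libraries 220 and 223 or without 5 libraries high in Slc17a7, chosen after seeing the data.

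The members and lists were chosen with earlier results of these data known. Named were all called genes, the 10 higher and 10 lower genes of lowest p, and 2 genes of lowest p per list. Also named were a short fixed list and the 5 higher and 5 lower genes of largest difference whose groups do not overlap. The short list held torsin and striatal genes with RGD1305178, Slc17a7, Ttr, Hist3h2a, Pld6, Cd93 and Nr1d1. Other list members were named after their values were seen.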

Additional observations from a re-analysis of the deposited data

Results flagged for a closer look

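In each group of 6 libraries, the lowest and highest value was compared with its nearest neighbour relative to the range of the group, for 184 sets of values, and 31 stood apart. Chance gives about 1 in 20. TG crush replicate 223 and wt crush replicate 203 gave most of them.

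TG crush replicate 223 was the lowest of its group for Tor1a (16.9 RPM), Penk (878 RPM), LOC679594 (18.6 RPM) and LOC100909521 (17.5 RPM), and the highest for the pituitary genes Gh1 (41.9 RPM) and Prl (11.3 RPM). It was also lowest in the mean log2 level of the lists for inherited dystonia (6.49), calcium signalling (7.05), the circadian clock (5.85) and glycolysis (7.61). Replicate 203 of the wt crush group was lowest for LOC679594 (29.4 RPM) and for the levels of inherited dystonia (6.70), glutamate receptors (5.86), calcium signalling (7.41), potassium channels (5.79), synaptic vesicle and SNARE genes (7.26) and glycolysis (7.79). Its mitochondrial genome level (11.95) and share of mitochondrial reads (15.93%) were the highest of the group.

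TG crush replicate 214 stood apart for LOC500476 (25.2 RPM) and Iqgap2 (28.9 RPM), where it was high, and for Mpeg1 (7.41 RPM) and Ephx2 (1.06 RPM), where it was low. Replicate 220 was high in Slc17a7 (63.3 RPM), replicate 222 in Pld6 (1.37 RPM), and replicate 226 low in human TOR1A (102.5 RPM). Among wt crush libraries, replicate 207 was high in human TOR1A (0.447 RPM), replicate 210 in Pld6 (2.37 RPM) and in the myelin list (8.18), replicate 206 in Pank1 (28.1 RPM) and replicate 205 in Pex11a (13.8 RPM).

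Nr1d2 had genotype differences in the 2 arms that differed by 0.48 on the log2 scale, by limma's interaction test (adjusted p = 0.00712).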

How the results depend on the processing

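The call of human TOR1A held in the 23 alternatives that tested it, and its log2 difference ran from 7.75 to 7.94 with a library left out. A filter of 5 RPM in all 12 libraries removes that row, which left 0 genes higher. Of rat genes, array weights gave 2 genes higher in all (Fgf18 with the human transcript) and 2 lower (Tgm2 and Ift140), the 12 crush libraries alone 2 lower (Pld6 and LOC679594), and the deposited RPKM 1 lower (Hist3h2a). With a library left out, 1 gene was higher and 0 lower each time. The genes with an unadjusted p under 0.05 numbered 2067 with no filter, 849 on the deposited RPKM, 396 without TG crush libraries 220 and 223, and 716 (without TG crush 223) to 1821 (without TG crush 214) with a library left out. Genes whose groups do not overlap numbered 71 (without TG crush 220) to 271 (without TG crush 214) with a library left out. Without both 220 and 223 they numbered 100. Fewer libraries overlap less often, so these counts are not set against that of all 12 libraries. The cause of the range among the fits with a library left out was not tested.

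Tor1a, Chat, Tor1b and Tor1aip1, with differences near 0, changed sign. Tor1a was at 0.0011 and Chat at 0.015 without TG crush replicate 223. With a library left out, Tor1a ranged from -0.089 to 0.0011, Chat from -0.22 to 0.015, Tor1b from -0.030 to 0.019 and Tor1aip1 from -0.028 to 0.028. Tor1aip1 was at 0.0025 with median-of-ratios rescaling, 0.0046 without the 5 libraries high in Slc17a7 and 0.0070 without 220 and 223. The cause was not tested. With a library left out, 15 of the 37 list medians took either sign, and 13 of the 37 changed sign without TG crush replicate 223. They include myelin (-0.05 to 0.10), GABA-A receptors (-0.10 to 0.07), cholinergic interneurons (-0.06 to 0.12), endothelium (-0.03 to 0.07) and heat shock proteins (-0.09 to 0.03). That of lipins and phospholipases D ran up to 0.09, without TG crush replicate 222. No paired analysis was possible because the groups share no replicate numbers. Below 0.093 RPM a level cannot be told from 0 at the lowest depth.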
